A study of Mus musculus with 10 samples.

Results

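The Nduf genes code for the subunits of mitochondrial complex I and for proteins that assemble it. The 48 protein-coding genes with a symbol starting with Nduf were taken from the 56748 gene identifiers of the count files. They comprised 7 core subunits, 30 accessory subunits, 8 assembly factors named Ndufaf and 3 other genes (Ndufa4, Ndufa4l2 and Ndufb11b). RNA was sequenced from the whole hearts, with both atria, of 5 training and 5 sedentary mice, 1 heart per library. All were wild-type C57BL/6 mice bought at 8 weeks of age. The training mice (labelled Exercise) ran on a treadmill at 15 m/min for 120 min a day on 5 days a week for 8 weeks, and the sedentary mice (labelled Control, treatment Sedentary) were of the same age and did not run. The question was how the transcripts of complex I in the heart differ after forced endurance training.

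Complex I, or NADH:ubiquinone oxidoreductase, passes electrons from NADH to ubiquinone and pumps protons out of the mitochondrial matrix. A matrix arm holds the flavin and the iron-sulphur clusters, and a membrane arm pumps the protons. Core subunits carry out the reaction and are encoded partly by mitochondrial DNA, accessory subunits surround and stabilise them, and assembly factors join the modules without staying in the finished enzyme. Heart muscle depends on this chain for most of its ATP.

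The training libraries held 29461697 to 35945417 reads on genes and the sedentary libraries 35196993 to 39431030, with a two-sided p of 0.0238 for the difference in depth by an exact permutation test (n = 5 per group). Of the 48 genes, 47 passed the filter on low counts. Each of these 47 had at least 297 reads in every heart. Ndufb11b had a single read in training heart 2 and none in the other 9 hearts, and it was not tested. Training heart 1 stood apart from the other training hearts in these genes, so counts are given with and without it. Because these same genes set it apart, counts without it are descriptions only. Cardiomyocyte markers were abundant in every heart, with a sum over 10 markers of 70686 to 75638 CPM (reads on a gene scaled to library size) after training and 74384 to 84587 CPM in sedentary hearts. In whole hearts, fewer cells of a type and less RNA per cell cannot be told apart.

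After training, 11 of the 47 tested Nduf genes were lower and 0 were higher at a false discovery rate (FDR) below 0.1. The share of 23.4% lower compares with 4.26% lower and 2.75% higher among all 15454 genes tested. The 11 were the core subunit Ndufv2, the accessory subunits Ndufa3, Ndufv3, Ndufa5, Ndufa6, Ndufb3, Ndufa11, Ndufb7, Ndufab1 and Ndufa10, and the assembly factor Ndufaf1. The log2 fold change (training over sedentary) was below 0 in 42 of the 47 genes, against 49.9% of all genes. Its median was −0.13, against 0.00026 over all genes tested. At an unadjusted p below 0.05 in edgeR stood 23 of the 47 genes, against 3087 of all 15454 genes tested.

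By class, 1 of 7 core, 9 of 30 accessory and 1 of 8 Ndufaf genes fell. The median log2 fold change was −0.11 for core subunits, −0.16 for accessory subunits and −0.070 for Ndufaf factors. The mean log2 CPM over a class, relative to the sedentary mean, put core and Ndufaf genes in the other order. In training hearts it averaged −0.072 for core and −0.11 for Ndufaf genes. Of the subunits, 16 belong to the matrix arm and 20 to the membrane arm, where 4 and 5 genes fell, with medians of −0.12 and −0.16. Ndufab1, which binds to both arms, was counted in neither. The number of lower genes depended on single hearts. It was 2 without sedentary heart 2, sedentary heart 3, training heart 3 or training heart 4, when 2.49%, 1.91%, 2.26% and 2.07% of all genes were lower. Without sedentary heart 4 or training heart 5 it was 4 (2.55% and 2.91% of all genes), and without sedentary heart 5 it was 7 (3.06%). It was 25 without training heart 1, against 3.98% of all genes lower in that fit. Scaling by library totals alone, without TMM factors, left 4 lower and 1 higher Nduf gene, Ndufv1, against 2.19% of all genes lower and 6.66% higher. A fit with a score of atrial markers per heart as a covariate called 0 of the 47 genes and 0.544% of all genes lower in edgeR. In that fit, 12 of the 47 genes stood at an unadjusted p below 0.05, against 1778 of all 15454 genes. The median of the 47 genes was −0.13 in that fit. The atrial score largely followed the group, at 0.40 to 0.93 in training and −0.60 to 0.61 in sedentary hearts. The fit therefore cannot cleanly separate that score from training.

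**Figure D1:**
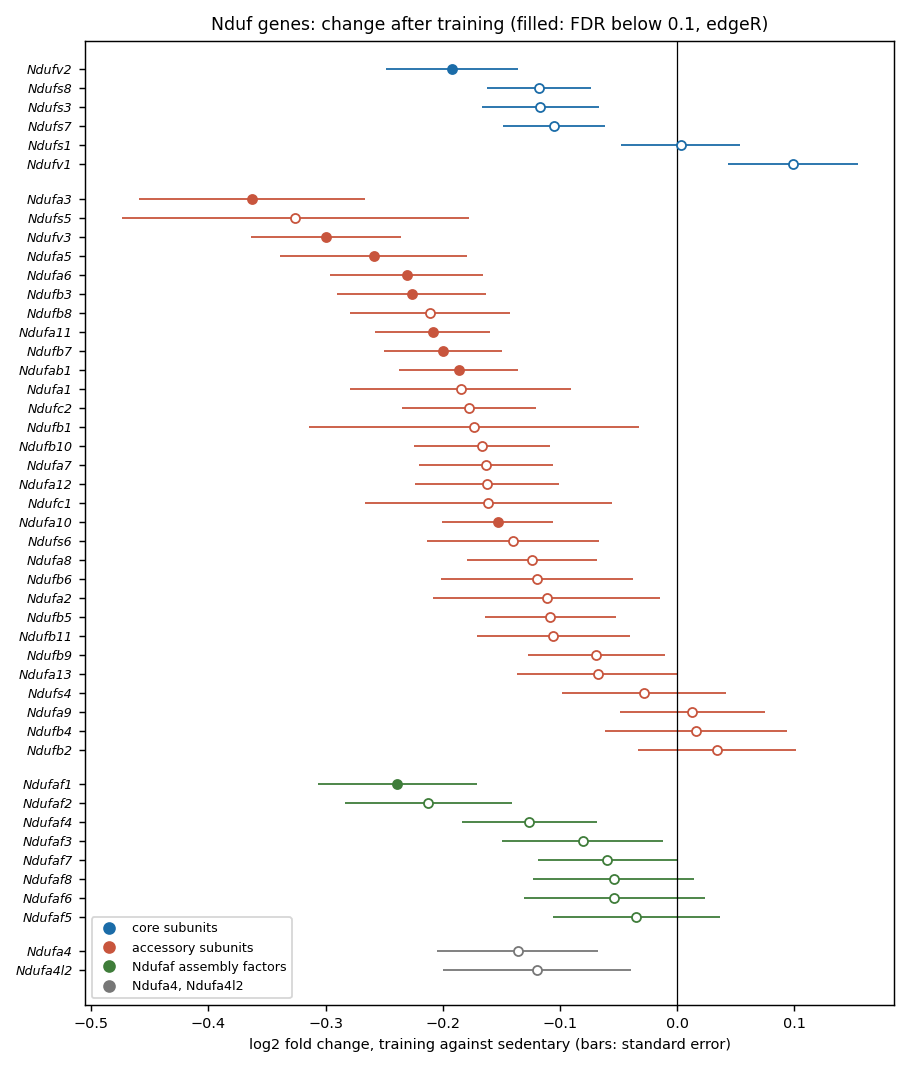
Log2 fold change, training over sedentary (x axis, bars are standard errors) for 46 tested Nduf genes, grouped by class. Filled points mark the 11 genes past an FDR of 0.1 in edgeR, all to the left of 0, and the points range from −0.36 for Ndufa3 to 0.10 for Ndufv1.

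The promoters of 5 of the 11 lower genes are shown. Ndufv3, Ndufa11 and Ndufb7 were taken because their groups did not overlap. Ndufa6 was added because it shares a motif with Ndufa11, and Ndufaf1 because it shares a motif with Ndufb7. Each run holds 250 bases before and 30 after the RefSeq start on GRCm38.p6. The regions are chr17:31519865-31520144, plus strand for Ndufv3, chr17:56717512-56717791, plus strand for Ndufa11, chr15:82354262-82354541, minus strand for Ndufa6, chr8:83566508-83566787, plus strand for Ndufb7 and chr2:119662805-119663084, minus strand for Ndufaf1. Capitals mark the letters GCATGCGC of nuclear respiratory factor 1 (NRF1) in Ndufa11, where matches on both strands overlap, and in Ndufa6. They mark CCGGAAG of the ETS family in Ndufb7 and Ndufaf1, and Ndufv3 has no capitals because none of the motifs searched is in its window.
Ndufv3: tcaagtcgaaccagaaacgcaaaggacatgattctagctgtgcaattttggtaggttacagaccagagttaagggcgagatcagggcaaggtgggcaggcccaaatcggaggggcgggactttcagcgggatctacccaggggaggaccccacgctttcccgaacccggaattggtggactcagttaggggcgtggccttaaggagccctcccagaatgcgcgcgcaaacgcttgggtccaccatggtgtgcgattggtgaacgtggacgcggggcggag
Ndufa11: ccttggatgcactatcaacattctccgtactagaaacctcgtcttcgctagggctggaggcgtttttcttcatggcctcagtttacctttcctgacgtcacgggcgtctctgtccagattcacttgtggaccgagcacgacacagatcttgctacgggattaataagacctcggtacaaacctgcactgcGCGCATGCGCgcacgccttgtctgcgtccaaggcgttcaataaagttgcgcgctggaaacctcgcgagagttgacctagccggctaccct
Ndufa6: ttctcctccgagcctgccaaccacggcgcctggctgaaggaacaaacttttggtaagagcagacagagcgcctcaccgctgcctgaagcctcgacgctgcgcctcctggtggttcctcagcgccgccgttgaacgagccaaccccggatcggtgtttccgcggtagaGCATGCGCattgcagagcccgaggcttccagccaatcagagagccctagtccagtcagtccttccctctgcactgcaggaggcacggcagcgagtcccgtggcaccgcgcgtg
Ndufb7: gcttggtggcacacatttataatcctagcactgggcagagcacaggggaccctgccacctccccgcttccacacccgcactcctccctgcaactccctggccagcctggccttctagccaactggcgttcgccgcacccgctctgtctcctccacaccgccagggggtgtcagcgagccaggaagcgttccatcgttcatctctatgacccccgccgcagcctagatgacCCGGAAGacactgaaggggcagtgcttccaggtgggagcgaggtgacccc
Ndufaf1: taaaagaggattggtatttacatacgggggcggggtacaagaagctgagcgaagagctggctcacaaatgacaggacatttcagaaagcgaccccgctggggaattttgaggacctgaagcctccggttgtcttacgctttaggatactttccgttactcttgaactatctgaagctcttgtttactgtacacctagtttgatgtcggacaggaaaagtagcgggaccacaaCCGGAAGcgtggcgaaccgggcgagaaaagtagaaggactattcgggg

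RefSeq promoters were found for 41 of the 48 Nduf genes and were searched on both strands. GCATGCGC was in 5 of the 41 (12.2%), namely Ndufa6, Ndufa8, Ndufa11, Ndufaf4 and Ndufaf5, against 4.22% of 15311 promoters of protein-coding genes. CCGGAAG was in 6 of the 41 (14.6%), against 13.6%. The letters AAGATGGC of Yin Yang 1 were in 3 of the 41 (7.32%), Ndufa3, Ndufaf8 and Ndufc1, against 2.98%. AAGGTCA of the oestrogen-related receptors was in 3 of the 41 (7.32%), Ndufb2, Ndufb4 and Ndufs5, against 4.41%. Of the 11 lower genes, 2 held GCATGCGC, 2 CCGGAAG, 1 AAGATGGC and 0 AAGGTCA. Ndufv2, Ndufa5, Ndufb3, Ndufab1 and Ndufa10, lower genes that are not shown, held none of these motifs. A match describes letters in the window and no bound factor.

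Levels were compared between genes as CPM per kilobase of the transcript length that RSEM weights. Ndufa4 was the most abundant Nduf gene in sedentary hearts, at 1093 ± 49.4 CPM per kilobase (SD, n = 5). Core subunits had a median of 339, and the lowest of them was Ndufs3 at 225. Accessory subunits spanned a 17.1-fold range, from 35.3 for Ndufb4 to 602 for Ndufa3, with a median of 260.2. Ndufaf factors were lower than every core subunit, between 13.5 for Ndufaf6 and 35.8 for Ndufaf4, with a median of 27.9. Ndufaf1 to Ndufaf8 together reached 206 ± 9.24 CPM per kilobase, against 2502 ± 92.4 for the 7 core and 7981 ± 279 for the 30 accessory subunits. The summed level after training was 95.6% of the sedentary level for core subunits, 88.7% for accessory subunits and 92.5% for Ndufaf factors.

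Some levels were bound to the way reads were counted. STAR counts only reads that map to 1 place, while RSEM shares the others between like copies. The RSEM level per kilobase was a median of 0.802 times that from STAR over the 47 genes. The ratio was 3.08 for Ndufb2, 2.91 for Ndufs5 and 2.23 for Ndufab1, the 3 genes above 2. The level of these accessory subunits is therefore uncertain. For Ndufab1, which also serves as the acyl carrier protein of mitochondrial fatty acid synthesis, the log2 fold change was −0.19 with STAR and −0.21 with RSEM. For Ndufb2 it was 0.034 with STAR and −0.087 with RSEM, and neither passed the test. Ndufb8, a membrane arm subunit, shares 11.3% of its exon bases with the gene Gm20538 on the same strand, and its log2 fold change was −0.21 with STAR and −0.11 with RSEM.

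**Figure D2:**
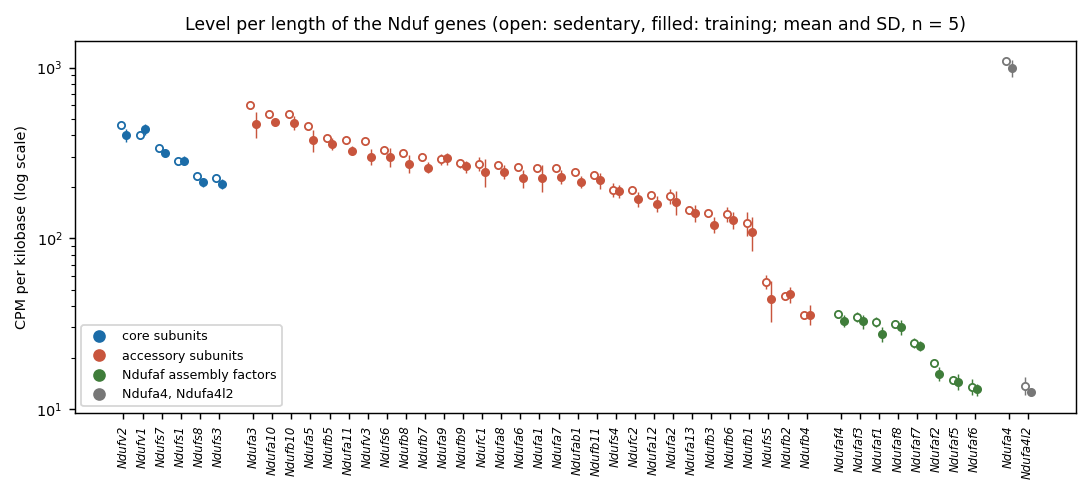
Level of 46 tested Nduf genes in CPM per kilobase of transcript (log axis), with open points for sedentary and filled points for training hearts (mean and SD, n = 5 each). Ndufa4 stands highest, at 1093 CPM per kilobase in sedentary hearts, and the Ndufaf factors lie between 13.5 and 35.8.

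Among the core subunits, the NADH-binding end of the matrix arm held both the only gene past the FDR and the highest log2 fold change of the class. Ndufv2 (ENSMUSG00000024099, chromosome 17 of GRCm39, 66385633 to 66408634, minus strand), which carries an iron-sulphur cluster beside the flavin, was at 441, 378, 390.2, 377 and 347 CPM in training hearts 1 to 5. In sedentary hearts 1 to 5 it was at 421, 441, 436, 464 and 446 CPM. Training hearts 2 to 5 lay below every sedentary heart, and training heart 1 lay among the sedentary values. Ndufv2 fell by 0.19 on the log2 scale (standard error 0.0562, Benjamini-Hochberg adjusted p = 0.0787 in the quasi-likelihood test of edgeR, as for every adjusted p given here), and it stayed past the threshold in 2 of the 10 fits that left out 1 heart.

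Ndufv1, which binds NADH and the flavin next to Ndufv2, was at 669, 569, 556, 609 and 588 CPM in the training hearts. The sedentary values were 531, 608, 562, 559 and 535 CPM. The groups overlapped, with training heart 1 and training heart 4 above all sedentary hearts. The log2 fold change of Ndufv1 was 0.10 (standard error 0.0555, adjusted p = 0.348, edgeR).

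The other core subunits did not pass the test. Ndufs1, the largest iron-sulphur subunit, was at 726 ± 43.6 CPM after training and 724 ± 37.0 CPM in sedentary hearts (SD, n = 5 each), a log2 fold change of 0.0030 with a standard error of 0.0508. Ndufs7, which carries the iron-sulphur cluster next to ubiquinone, had a log2 fold change of −0.11 (adjusted p = 0.2, edgeR). Ndufs8, which carries iron-sulphur clusters on the way to ubiquinone, was at −0.12 (adjusted p = 0.157, edgeR) and Ndufs3, a scaffold of the same module, at −0.12 (adjusted p = 0.211, edgeR). Without training heart 1, Ndufs3, Ndufs7, Ndufs8 and Ndufv2 had adjusted p between 0.0203 and 0.0882 in edgeR. That heart was left out because it was high in these same genes, so these values are descriptions and no further support.

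The accessory subunits Ndufv3, Ndufa11 and Ndufb7 were lower in every training heart than in any sedentary heart. They were the only 3 such cases among the 47 genes (6.38%), against 2.94% of all genes tested. Ndufv3 (ENSMUSG00000024038, chromosome 17 of GRCm39, 31739052 to 31751735, plus strand), which sits on the NADH-binding module, was at 177, 158, 162, 152 and 131 CPM in training hearts 1 to 5. Its sedentary values were 181, 197, 192, 193 and 199 CPM. Training heart 1 came closest to the sedentary hearts and training heart 5 was farthest from them. Ndufv3 fell by 0.30 on the log2 scale (standard error 0.064, adjusted p = 0.0272, edgeR), a call that held in 10 of 10 fits without 1 heart.

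Ndufa11 (ENSMUSG00000002379, chromosome 17 of GRCm39, 57024322 to 57031247, plus strand), a membrane arm subunit at the contact with complex III, was at 178, 174, 164, 170.4 and 153 CPM after training. Sedentary hearts had 184, 191, 187, 202 and 206 CPM. The highest training and the lowest sedentary heart were close to each other. Ndufa11 fell by 0.21 on the log2 scale (standard error 0.049, adjusted p = 0.0376, edgeR) and was called in 10 of 10 fits without 1 heart. With the trend on transcript length removed, its log2 fold change was −0.12 (adjusted p = 0.149, edgeR).

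Ndufb7 (ENSMUSG00000033938, chromosome 8 of GRCm39, 84293300 to 84298255, plus strand), a membrane arm subunit on the side of the intermembrane space, had training values of 179, 173, 159, 164 and 148 CPM. Its sedentary values were 180.4, 197, 185, 192 and 191 CPM. Only a narrow gap separated training heart 1 from sedentary heart 1. Ndufb7 fell by 0.20 on the log2 scale (standard error 0.0504, adjusted p = 0.0475, edgeR), and 6 of 10 fits without 1 heart kept the call.

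Ndufa3 had the largest fall of the accessory class and overlapped through 1 heart. Ndufa3 (ENSMUSG00000035674, chromosome 7 of GRCm39, 3620342 to 3623326, plus strand), a small membrane arm subunit, was at 203, 159.6, 167, 157 and 123 CPM after training. It was at 195, 224, 201, 216 and 206 CPM in sedentary hearts. Training heart 1 lay within the sedentary range, and the other training hearts lay below it. Ndufa3 fell by 0.36 on the log2 scale (standard error 0.0961, adjusted p = 0.0567, edgeR), and by 0.46 without training heart 1.

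Ndufa5 and Ndufa6, matrix arm subunits near the ubiquinone module, showed the same split between training heart 1 and the others. Ndufa5 (ENSMUSG00000023089, chromosome 6 of GRCm39, 24518659 to 24528012, minus strand) was at 199.8, 155, 158, 154 and 136 CPM after training and at 187, 198, 201, 196 and 179 CPM in sedentary hearts. Ndufa5 fell by 0.26 on the log2 scale (standard error 0.0799, adjusted p = 0.0935, edgeR). Ndufa6 (ENSMUSG00000022450, chromosome 15 of GRCm39, 82234340 to 82238523, minus strand), which binds the acyl carrier protein Ndufab1, had training values of 154, 130.1, 128, 127 and 112 CPM and sedentary values of 153, 151, 155, 156 and 149.7 CPM. Training heart 1 was within the sedentary range in both genes, and all other training hearts were below it. Ndufa6 fell by 0.23 on the log2 scale (standard error 0.065, adjusted p = 0.0696, edgeR).

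Ndufab1 (ENSMUSG00000030869, chromosome 7 of GRCm39, 121684626 to 121701393, minus strand) was at 117, 104, 106, 99.6 and 95.1 CPM after training and 117, 123, 116, 121 and 116 CPM in sedentary hearts. Training hearts 2 to 5 were below the sedentary range, and Ndufab1 fell by 0.19 on the log2 scale (standard error 0.0507, adjusted p = 0.062, edgeR). Ndufb3 (ENSMUSG00000026032, chromosome 1 of GRCm39, 58625541 to 58636536, plus strand), in the distal membrane arm, was at 107, 93.2, 87.4, 88.7 and 80.1 CPM after training and 108, 111, 109, 101 and 104 CPM in sedentary hearts. Again training heart 1 alone reached the sedentary values, and Ndufb3 fell by 0.23 on the log2 scale (standard error 0.0636, adjusted p = 0.0692, edgeR). Ndufa10 (ENSMUSG00000026260, chromosome 1 of GRCm39, 92361375 to 92401613, minus strand), a membrane arm subunit with the fold of a nucleoside kinase, was at 534, 485, 470.4, 504 and 469 CPM after training and 509, 572, 553, 546 and 559 CPM in sedentary hearts. Training heart 1 lay within the sedentary range, and Ndufa10 fell by 0.15 on the log2 scale (standard error 0.0474, adjusted p = 0.0943, edgeR). Without 1 heart at a time, Ndufb3 and Ndufa3 kept their calls in 5 of 10 fits, Ndufab1 in 4, Ndufa6 in 3, and Ndufa5 and Ndufa10 in 2.

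Of the 21 accessory subunits that did not pass, 18 had a log2 fold change below 0 and 3 above. Ndufs5, a subunit of the membrane arm facing the intermembrane space, was at 30.4, 25.0, 26.1, 20.6 and 14.2 CPM in the training hearts. It was at 29.2, 31.2, 31.9, 29.0 and 25.0 CPM in the sedentary hearts. On the log2 scale the difference of Ndufs5 was −0.33 with a standard error of 0.148, the largest of the class (adjusted p = 0.238, edgeR). It was −0.23 with RSEM counts and lay between −0.44 and −0.19 without 1 heart at a time. The 3 genes above 0 were Ndufb2 at 0.034, Ndufb4 at 0.016 and Ndufa9 at 0.013, with adjusted p of at least 0.83 in edgeR. All 3 were below 0 without training heart 1.

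Among the assembly factors, Ndufaf1 alone passed the test, and all 8 had a log2 fold change below 0. Ndufaf1 (ENSMUSG00000027305, chromosome 2 of GRCm39, 119482683 to 119493359, minus strand), which works with Ecsit and Acad9 on the membrane arm, was at 42.4, 37.3, 33.2, 33.99 and 35.7 CPM after training. It was at 42.4, 47.2, 45.0, 41.5 and 39.5 CPM in sedentary hearts. Training hearts 2 to 5 lay below the sedentary range and training heart 1 within it. Ndufaf1 fell by 0.24 on the log2 scale (standard error 0.0679, adjusted p = 0.0714, edgeR), and the call held in 4 of 10 fits without 1 heart.

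Ndufaf2, a relative of Ndufa12 that acts late in assembly, was at 10.8 ± 1.04 CPM after training and 12.5 ± 0.747 CPM in sedentary hearts (log2 fold change −0.21, adjusted p = 0.12, edgeR). Ndufaf3 and Ndufaf4, which act as partners on the ubiquinone module, had log2 fold changes of −0.081 and −0.13 (adjusted p = 0.565 and 0.24, edgeR). Ndufaf5, which modifies Ndufs7, was at −0.035 and its partner Ndufaf8 at −0.054. Ndufaf6 and Ndufaf7, the second of which is a methyltransferase, were at −0.054 and −0.060. The adjusted p of these 4 factors lay between 0.631 and 0.836 in edgeR.

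Neither of the other tested Nduf genes passed. Ndufa4, now counted as a subunit of complex IV, was at 564, 466, 479.9, 446 and 416 CPM after training. Sedentary hearts had 489, 547, 526, 538 and 506 CPM. Training heart 1 was above and the other 4 training hearts below the sedentary range, for a fold change of −0.14 in log2 units (standard error 0.0686, adjusted p = 0.289, edgeR). Ndufa4l2, a relative of Ndufa4 that is induced by hypoxia, was at 9.96 ± 0.497 CPM after training and 10.8 ± 1.29 CPM in sedentary hearts (adjusted p = 0.445, edgeR).

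Heart by heart, the 47 genes moved largely as a block. Training heart 1 was the highest training heart in 44 of the 47 genes and above all sedentary hearts in 16. Training heart 5 was below all sedentary hearts in 40 genes and the lowest of the 10 hearts in 35. Training hearts 2, 3 and 4 were below all sedentary hearts in 28, 28 and 37 genes. These counts for single hearts were not taken over all tested genes, so they show no trait particular to Nduf genes. The score of all 1701 tested genes under 1000 bases was also lowest in training heart 5, at −0.16. Without training heart 1, 26 of the 47 genes had no overlap between the groups, against 4.72% of all genes tested. Among the 26 were 5 core, 18 accessory and 2 Ndufaf genes. That heart was left out because it was high in these same genes. The count is therefore raised by that choice, while the share of all genes was not selected in this way.

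**Figure D3:**
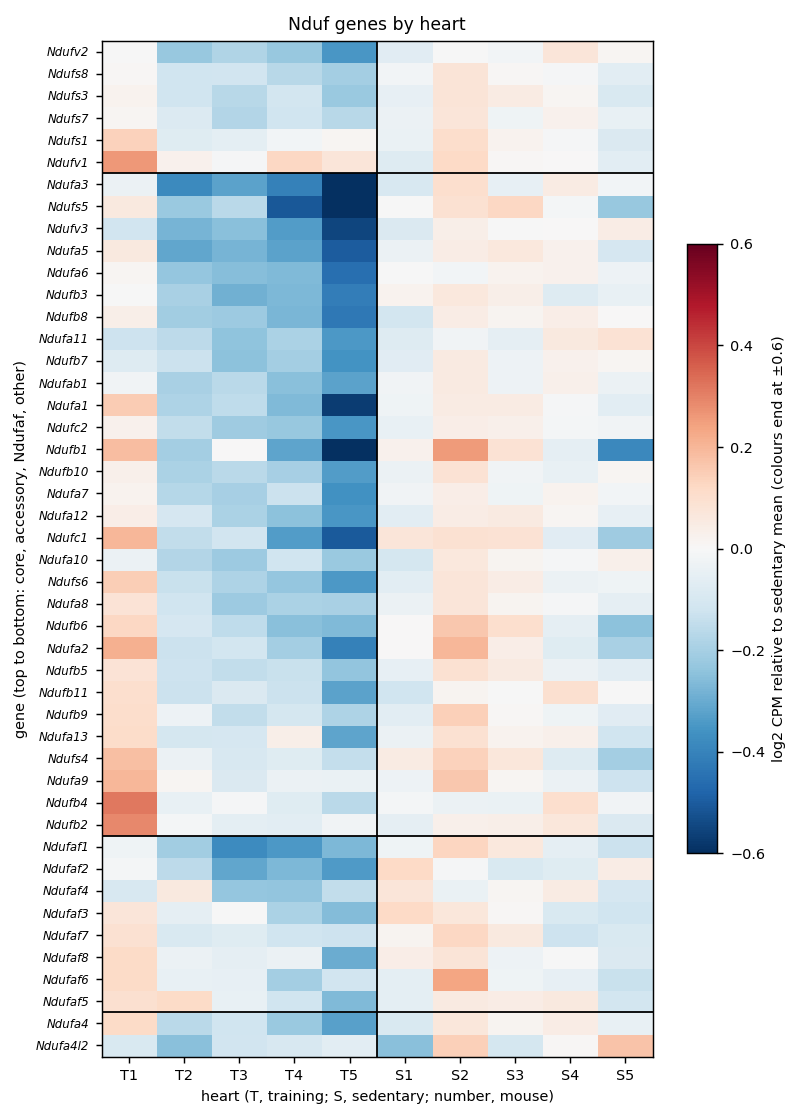
Log2 CPM of 46 tested Nduf genes (rows) in each heart (columns) relative to the sedentary mean of that gene, with colours ending at ±0.6. The column of training heart 5 is the bluest, with the lowest value of the 10 hearts in 35 of all 47 genes, and the column of training heart 1 is mostly pale or red. The same count was not taken over all tested genes.

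The mean log2 CPM over a class, relative to the sedentary mean, gave a score per heart. The core score was 0.072, −0.10, −0.12, −0.080 and −0.14 in training hearts 1 to 5 and −0.045, 0.081, 0.0099, 0.0081 and −0.054 in sedentary hearts 1 to 5. The accessory score was 0.081, −0.15, −0.17, −0.21 and −0.37 in training hearts and −0.034, 0.078, 0.027, 0.0013 and −0.072 in sedentary hearts. The Ndufaf score was 0.047, −0.049, −0.14, −0.19 and −0.22 in training hearts and 0.031, 0.083, 0.0076, −0.034 and −0.088 in sedentary hearts. In every class, training heart 1 was above 0, and training heart 5 was below the sedentary range. The core score exceeded the accessory score by 0.048 to 0.24 in training hearts 2 to 5, while the difference was −0.0084 in training heart 1 and −0.017 to 0.018 in sedentary hearts. No p-value was computed for these scores, because the genes were chosen with results of these hearts known.

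**Figure D4:**
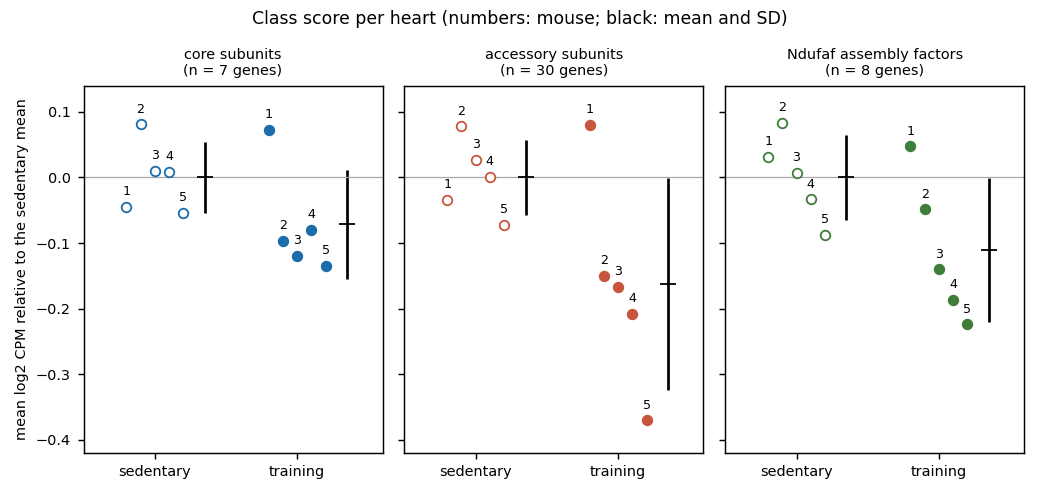
Score of core subunits, accessory subunits and Ndufaf factors in each heart (y axis, mean log2 CPM relative to the sedentary mean), with the mouse number at each point and the mean and SD of 5 hearts as a bar. The accessory score reaches −0.37 in training heart 5, where the core score is −0.14, and training heart 1 is above 0 in each panel.

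Transcript length moved with these values. Across the 47 genes, Spearman's correlation of length with the log2 fold change was 0.41, and it was 0.14 across all genes tested. The genes of 1 set of hearts share libraries and depth, so both values are descriptions. Nduf transcripts had a median of 670.4 bases, and all genes tested one of 2392. Under 500 bases, the median log2 fold change was −0.16 for 9 Nduf genes and −0.10 for all genes of that length. From 500 to 700 bases it was −0.17 for 17 Nduf genes and −0.087 for all genes, and from 700 to 1000 bases −0.12 for 11 and −0.033 for all. Above 1000 bases, it was −0.061 for 10 Nduf genes and −0.0051 for all genes up to 3000 bases.

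All 1701 tested genes under 1000 bases were as a group also highest in training heart 1 and lowest in training heart 5, with scores of 0.056, −0.057, −0.041, −0.073 and −0.16 in training hearts 1 to 5 and 0.030, −0.012, 0.013, −0.012 and −0.019 in sedentary hearts. With the trend on length removed in each library, 10 Nduf genes were lower (4.74% of all genes) and 0 higher in edgeR, and the median log2 fold change of the 47 genes was −0.071. The medians were then −0.049 for core, −0.090 for accessory and −0.023 for Ndufaf genes. Ndufa11, Ndufab1 and Ndufa10 did not pass in that fit, with adjusted p of 0.149, 0.104 and 0.104 in edgeR, and Ndufb8 and Ndufc2 did, with 0.079 and 0.0853.

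**Figure D5:**
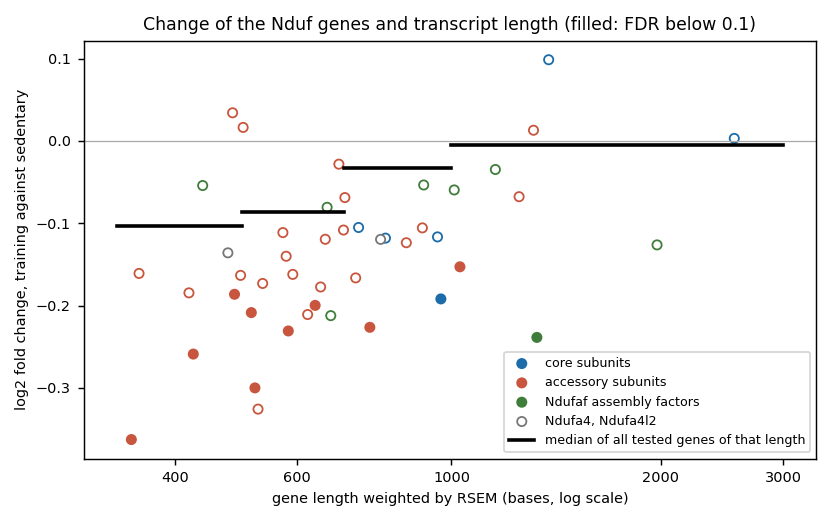
Log2 fold change of 46 tested Nduf genes (y axis) against transcript length in bases (x axis, log scale), with black lines for the median of all tested genes of the same length. Most Nduf genes lie below the line of their length class, which is at −0.10 under 500 bases and −0.0051 from 1000 to 3000 bases.

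Of 8 atrial markers, Dkk3 and Sln rose and 0 fell in edgeR. The sum over 8 atrial markers was 5145 to 7735 CPM in training and 2852 to 6942 CPM in sedentary hearts. The atrial score was 0.65, 0.40, 0.93, 0.67 and 0.41 in training hearts 1 to 5 and 0.61, −0.60, 0.15, 0.28 and −0.44 in sedentary hearts. The score of 10 cardiomyocyte markers was −0.074, −0.089, −0.19, −0.13 and −0.15 in training hearts and −0.11, 0.022, −0.0067, 0.065 and 0.032 in sedentary hearts, and Actc1 was lower. Of fibroblast markers 2 of 7 rose and of endothelial markers 2 of 6 fell, with endothelial sums of 844 to 909.8 CPM after training and 937 to 990.3 CPM in sedentary hearts. Of skeletal muscle markers 2 of 4 tested fell, Acta1 and Ckm, both also made by heart muscle, and Myh1, Myh2 and Myh4 were near 0. Adipocyte and erythroid markers had 0 calls in edgeR, at an unadjusted p below 0.05 in 0 of 7 and 1 of 5. The part of these cell types in the Nduf values was not tested beyond the fit with the atrial score, which cannot cleanly separate that score from training.

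The complex I genes of mitochondrial DNA had the same sign and passed no test. Of 7, 5 were tested, since mt-Nd3 and mt-Nd4l had hardly any reads counted on them. These genes code for core subunits of the membrane arm. Mt-Nd1 was at 26629.9 ± 1285 CPM after training and 29013 ± 2498 CPM in sedentary hearts, a log2 fold change of −0.12. The log2 fold changes were −0.18 for mt-Nd2, −0.090 for mt-Nd4, −0.061 for mt-Nd5 and −0.22 for mt-Nd6, with adjusted p between 0.143 and 0.726 for the 5 genes in edgeR. At an unadjusted p below 0.05 stood 2 of them.

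Other assembly factors of complex I, 15 genes without the Nduf name, had 1 lower and 0 higher gene, with a median of −0.080. The lower gene was Dmac2, a factor of the distal membrane arm, at 42.7 ± 2.09 CPM after training and 49.5 ± 2.12 CPM in sedentary hearts (log2 fold change −0.21, adjusted p = 0.0276, edgeR). Ecsit and Acad9, the partners of Ndufaf1, were at −0.13 and −0.0069, and neither passed.

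Of the 37 core and accessory subunits of complex I, 10 fell (27.0%), with a median log2 fold change of −0.15. In complexes II and III, 2 of 13 genes fell (15.4%), Uqcr11 and Uqcrq, and the median was −0.083. In complex IV, 2 of 12 fell (16.7%), Cox6b1 and Cox8b, with a median of −0.15, and in ATP synthase 1 of 17 (5.88%), Atp5f1d, with a median of −0.068. These differences between complexes were not tested. Of 8 regulators of mitochondrial genes, among them Ppargc1a, Esrra, Nrf1 and Gabpa, 0 were called in edgeR and 0 had an unadjusted p below 0.05. Ppargc1a, the coactivator that drives mitochondrial biogenesis, was at 340.0 ± 81.6 CPM (SD, n = 5) after training and 417 ± 92.7 CPM in sedentary hearts (log2 fold change −0.29, adjusted p = 0.357, edgeR).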

How the data were processed

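Per heart, the authors deposited raw gene counts of uniquely mapped reads (STAR 2.7.10a, GRCm39), for each strand and both together. A further deposited table per heart gives RSEM 1.3.3 expected counts and gene lengths. The RSEM strand setting is not given in the sources used here. None of these values was normalized. Single reads came from 1 pool of directional poly-A libraries. The reverse-strand counts were used, at least 94.9% of the counts on either strand. Reads mapped to several places made up 17.9% to 19.2%, reads on no gene 4.15% to 4.89% and ambiguous reads up to 0.998% of a table. These lines stayed out of library sizes and tests. The TPM and FPKM columns were not used.

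Groups came from the sample titles. Symbols, positions and biotypes came from GENCODE M39 (56017 of 56748 identifiers matched). The test was edgeR's quasi-likelihood F test (edgeR 4.0.16 in R 4.3.3) after filterByExpr with TMM scaling, with p-values adjusted by Benjamini-Hochberg over all tested genes and an FDR below 0.1 as the limit. All CPM use TMM-scaled library sizes, with a prior count of 2 for log2 scores. The study's own test, DESeq2, served as an alternative (version 1.42.0) on the same raw counts. RSEM counts were rounded before testing. Promoters came from RefSeq on GRCm38.p6. The steps were tested on simulated data.

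Every Nduf gene past the FDR was named, together with the highest and lowest level and the largest rise and fall of each class, all core and Ndufaf genes, Ndufa4 and Ndufa4l2. A gene that this rule selects is not reported here, though it stayed in the fits and counts. Ndufb8, Ndufc2 and Ndufa9 and genes named for shared motifs, overlaps or counting were added after their values were seen. The genes, classes and lists were chosen with earlier results of these data known. Other alternatives were DESeq2 size factors, no TMM, no filter, a minimum of 10 counts per library, both strands, no mitochondrial DNA genes, the mouse number as a block, length or GC trends removed by loess (span 0.3), an atrial marker covariate, an FDR of 0.05, effective lengths and each heart left out. Residuals of hearts with the same mouse number correlated between −0.097 and 0.159, so the numbers were not used as pairs. Replicates were separate animals.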

Additional observations from a re-analysis of the deposited data

Results flagged for a closer look

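In 7 of the 64 sets of 5 hearts examined, 1 heart lay far from the other 4 by Dixon's test at the 95% level, which by chance flags about 1 set in 20. Of the 7, 4 concerned training heart 1. In that heart, Ndufb4 was at 22.0 CPM against 15.8 to 17.6 in the other training hearts, Ndufb2 at 27.1 CPM against 21.2 to 22.0 and Ndufaf7 at 26.2 CPM against 22.6 to 23.4. Its core subunit score was 0.072, against −0.14 to −0.080 in the other training hearts. Training heart 2 had Ndufa4l2 at 9.11 CPM, against 10.0 to 10.4 CPM. Sedentary heart 2 had Ndufaf6 at 14.5 CPM, against 11.2 to 12.1, and sedentary heart 4 had Ndufb4 at 18.9 CPM, against 17.2 to 17.6.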

How the results depend on the processing

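Against 11 lower and 0 higher Nduf genes, the count of lower genes was 0 with the atrial score as a covariate, 4 with library totals and no TMM, and 3 at an FDR of 0.05 (2.06% of all genes). With no TMM, 1 gene was higher, Ndufv1, and the median of all genes moved to 0.053. Leaving out 1 heart gave 2 to 25 lower genes and 3 to 26 genes without overlap. DESeq2 called 16 (5.54% of all genes), RSEM counts 10 (3.86%) and the other alternatives 9 to 12 (2.27% to 4.74%). With the mouse number as a block, 11 genes were lower (4.33%) and the median was −0.13; the numbers do not mark pairs. The class medians and the differences between class means of the log2 fold change kept their sign in every alternative run. They moved by less than 1 SD between hearts, but some moved by over 1.5 times. With no TMM the median was −0.074 for all Nduf genes, −0.052 for core, −0.11 for accessory and −0.019 for Ndufaf genes. The Ndufaf median was −0.11 with the atrial covariate or without training heart 1, and −0.043 without training heart 5. The mean log2 fold change of core subunits exceeded that of accessory subunits by 0.085, by 0.045 with the length trend removed and by 0.053 without training heart 5. Effective length in place of length moved the summed sedentary levels to 2750 for core, 9688 for accessory and 234 for Ndufaf genes, and RSEM counts to 2026, 7396 and 162 CPM per kilobase. Over 28 tested genes that the naming rule picked and all alternatives, 97 values from 11 genes lost a call. A call was gained by 9 values from 7 genes, and 521 values kept direction and call. Ndufb8, Ndufc2, Ndufa9 and the other genes added after their values were seen are not in these counts. The 17 values that changed sign came from 7 genes, and the cause was not tested. Ndufa4l2 was at 0.043 with the atrial covariate, against −0.12 without it. The others lay nearer to 0 in the reported fit. They were Ndufaf6 at 0.018 and Ndufb4 at −0.028 with the atrial covariate, Ndufaf5 at 0.018 with no TMM, Ndufaf8 at 0.042 with the length trend removed, and Ndufb2 at −0.087 with RSEM. Ndufs1 was at −0.0027 with the GC trend removed, −0.00093 with RSEM, −0.0060 with both strands and −0.0060 with no filter. Without 1 heart at a time, Ndufaf5 was at −0.075 to 0.016, Ndufaf6 at −0.099 to 0.012, Ndufb2 at −0.038 to 0.057, Ndufb4 at −0.070 to 0.057 and Ndufs1 at −0.033 to 0.031. RNA levels give no measure of complex I protein.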

Other observations

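Ndufv1, Ndufv2 and Ndufv3 sit together at the NADH-binding end of complex I, and the ratios of the others to Ndufv1 are given here for each heart. The CPM of Ndufv2 divided by that of Ndufv1 was 0.659, 0.664, 0.702, 0.62 and 0.59 in training hearts 1 to 5 and 0.794, 0.726, 0.777, 0.831 and 0.833 in sedentary hearts 1 to 5. All training hearts, training heart 1 included, lay below all sedentary hearts. For Ndufv3 against Ndufv1 the ratio was 0.265, 0.278, 0.291, 0.25 and 0.223 in training hearts and 0.342, 0.324, 0.341, 0.345 and 0.371 in sedentary hearts, again without overlap. A ratio within a heart does not depend on the library's scaling. These ratios were chosen after the values were seen, so no test is given. Of the 46 tested Nduf genes other than Ndufv1, these included, 30 (65.2%) had a ratio to Ndufv1 that was lower after training without overlap. The same held for 6.5% of the 15453 tested genes other than Ndufv1. Ndufv1 had the highest log2 fold change of the tested Nduf genes, at 0.10, so ratios to it are lower after training in part by that choice. Of 1081 pairs of tested Nduf genes, 160 had ratios without overlap between the groups, in one direction or the other (14.8%). Pairs with Ndufv1 are among them. The share over pairs of all tested genes was not computed, so the 14.8% cannot be called high or low.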
